A study of Mus musculus with 46 samples.

Results

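In livers of mice on a carbohydrate-rich diet (CD), 380 H3K27ac loci were found that were not called in livers of mice on a lipid-rich diet (LD). The loci were chosen by peak presence alone. Overlapping peaks of the 6 H3K27ac samples were merged, which gave 50205 loci that 2 or more samples shared, and a locus was kept when all 3 CD samples and none of the 3 LD samples had a peak in it. The mice were male C57BL/6, 5 weeks old on arrival, and ate one of the diets for 20 weeks. Lipid supplied 60% of the energy of LD and 10% of that of CD, carbohydrate 20% and 70%, and protein 20% of both. Besides H3K27ac, liver was assayed by RNA-seq (5 mice per diet), ChIP-seq of the transcription factors Hnf4α and C/EBPα (2 samples per diet each) and promoter capture Hi-C (PCHi-C, 2 samples per diet, pooled by the authors before interactions were called). The labels call CD a low-fat and LD a high-fat diet, and no chow-fed group was compared, so a difference has no other diet as reference.

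Acetylation of lysine 27 of histone H3 is laid down by the acetyltransferases p300 and CBP and marks active promoters and enhancers. In liver, many enhancers lie far from the transcription start site (TSS) of the gene they act on, and they are bound by factors such as Hnf4α and C/EBPα, which maintain the hepatocyte programme of lipid, bile acid and amino acid metabolism. PCHi-C enriches a Hi-C library for fragments that contain promoters and so records which distant fragments lie close to a promoter in the nucleus.

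Sequences inside several of these loci, on the + strand of mm9, are given first. The first set shows the string ATTGATTT, the core of the site bound by HNF6 (Onecut1), for 5 loci that hold it in their central 600 bp and whose nearest gene differed in RNA. Capitals mark the string or its reverse complement AAATCAAT. Sites lie at chr15:83992813-83992872 (before Pnpla3), chr7:88810514-88810573 (intron of Homer2), chr11:121112040-121112099 (Foxk2), chrX:97987211-97987270 (Dlg3) and chr4:122613348-122613407 (Mfsd2a).
Pnpla3: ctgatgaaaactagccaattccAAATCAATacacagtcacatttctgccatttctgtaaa
Homer2: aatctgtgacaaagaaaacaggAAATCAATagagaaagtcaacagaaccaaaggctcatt
Foxk2: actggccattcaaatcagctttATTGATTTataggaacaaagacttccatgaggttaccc
Dlg3: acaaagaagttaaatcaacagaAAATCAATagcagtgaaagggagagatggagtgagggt
Mfsd2a: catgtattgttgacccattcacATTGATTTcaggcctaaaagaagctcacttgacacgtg

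The second set shows sequence at factor peaks that were called on CD and were absent or lower on LD. At chr10:94462454-94462669, with Plxnc1 as the nearest gene, an Hnf4α and a C/EBPα peak were both called in both CD samples only, and capitals mark the 17 bases from one peak centre to the other. At chr9:104264111-104264310, near Acpp, capitals mark the 114 bases that the study's ChIP-qPCR amplicon covers. At chr7:138593941-138594140, in an intron of Fgfr2 near Acadsb, capitals mark the C/EBP string TTGCNNAA and the STAT5 string TTCNNNGAA, where N is any base. At chr6:28002059-28002178, in an intron of Grm8, capitals mark a C/EBP string on the − strand inside an Hnf4α peak that was called on CD only.
Plxnc1 Hnf4α and C/EBPα: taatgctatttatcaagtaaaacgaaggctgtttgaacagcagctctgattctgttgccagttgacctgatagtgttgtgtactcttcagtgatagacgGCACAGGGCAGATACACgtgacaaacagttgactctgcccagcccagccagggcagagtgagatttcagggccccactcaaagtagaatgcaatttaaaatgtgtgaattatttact
Acpp Hnf4α: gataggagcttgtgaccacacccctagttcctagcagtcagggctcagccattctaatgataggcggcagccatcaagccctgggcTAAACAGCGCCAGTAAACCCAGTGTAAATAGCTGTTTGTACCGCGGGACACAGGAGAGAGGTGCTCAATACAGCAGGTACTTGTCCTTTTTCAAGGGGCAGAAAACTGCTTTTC
Acadsb C/EBPα: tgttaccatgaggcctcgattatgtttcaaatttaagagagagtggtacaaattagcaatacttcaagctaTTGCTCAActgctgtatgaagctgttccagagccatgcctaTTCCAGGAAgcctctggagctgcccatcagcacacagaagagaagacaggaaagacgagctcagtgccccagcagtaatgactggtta
Grm8 Hnf4α: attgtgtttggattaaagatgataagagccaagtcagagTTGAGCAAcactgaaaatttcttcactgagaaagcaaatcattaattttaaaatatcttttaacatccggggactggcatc

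The H3K27ac lists held fewer peaks on CD (48156 to 51608 per sample) than on LD (53821 to 56987), and 1571 loci met the mirrored rule of LD alone. The part of this imbalance in which loci were called on one diet was not tested. RNA libraries held 31707963 to 39012699 counts. Summed levels of 10 hepatocyte markers were 112500 to 131800 CPM (counts scaled to library size) on CD and 105100 to 128100 on LD, a sum that Alb dominates, and 5 of the 10 were called higher on CD (Cps1, Serpina1c, Fgb, Tat and Ass1, with a median log2 fold change of 0.37 over the list). The 3 adipocyte markers were at or near 0 (at most 0.0873 CPM in any mouse). The 8 Kupffer cell and macrophage markers summed to 306.7 to 611.2 CPM on CD and 382.0 to 961.6 on LD, with 1 of 8 lower on CD, and 6 stellate cell markers to 567.6 to 697.8 and 675.5 to 974.5 CPM, with 3 of 6 lower on CD. Of 6 sinusoidal endothelial cell markers 1 was called lower on CD, and no lymphocyte or cholangiocyte marker was called. No gene of any of these lists was nearest to a CD-only locus. Over all tested genes, 11.1% were called higher on CD and 13.8% lower. The part of cell composition in the RNA differences below was not tested.

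CD-only loci were short and far from promoters. Their median length was 1900 bp (400 to 6600), against 2000 bp for LD-only loci and 3800 bp for the 29890 loci common to all 6 samples. In the 3 CD samples the peaks inside them covered a median of 1400, 1200 and 1400 bp. By the place of its centre, a locus lay in an intron in 214 of 380 cases (56.3%), outside genes in 142 (37.4%) and in an exon in 24 (6.32%). The median distance to the nearest TSS was 29.1 kb, against 22.2 kb for LD-only loci and 9.49 kb for loci of all 6 samples, and 341 of 380 (89.7%) lay more than 5 kb from a TSS (83.9% and 57.6% in the other classes). A TSS lay inside 7 loci (1.84%), against 5.03% and 35.4%. The rule decides which loci are counted: 754 further loci had a peak in all 3 CD samples and in 1 LD sample, and 1051 had one in 2 CD samples and no LD sample.

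The 10 loci with the most covered bases lay near genes of several kinds. The first by mean covered length lay at chr7:88807600-88812999, in an intron of Homer2 (a scaffold protein of glutamate receptor and calcium signalling). It was covered over 5400, 3600 and 3400 bp in the CD samples (4133 ± 1100 bp, SD, n = 3). The next, at chr15:84008200-84013199, lay in an intron of Pnpla3, a lipase-like protein of lipid droplets, with the TSS of Samm50 (a component of the mitochondrial outer membrane sorting machinery) nearest, and was covered over 4400, 3800 and 4000 bp. Coverage was most alike between samples at this locus (SD 306 bp) and least alike at chr6:99114400-99119199 in an intron of Foxp1, a forkhead repressor (4800, 3000 and 1400 bp).

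The other 7 were at Cmah (chr13:24499800-24504399, on an exon), near Cck (chr9:121365400-121370399, intron of Trak1), near Acadsb (chr7:138591400-138595999, intron of Fgfr2), at Plekha5 (chr6:140390200-140394599, intron), near Acpp (chr9:104262200-104266599, intergenic), at Lect1 (chr14:80035000-80039599, across its 3′ end) and near Dkk3 (chr7:119241200-119244599, intron of Usp47). Their mean covered length ran from 3000 ± 400 bp near Dkk3 to 3467 bp at Cmah.

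**Figure D1:**
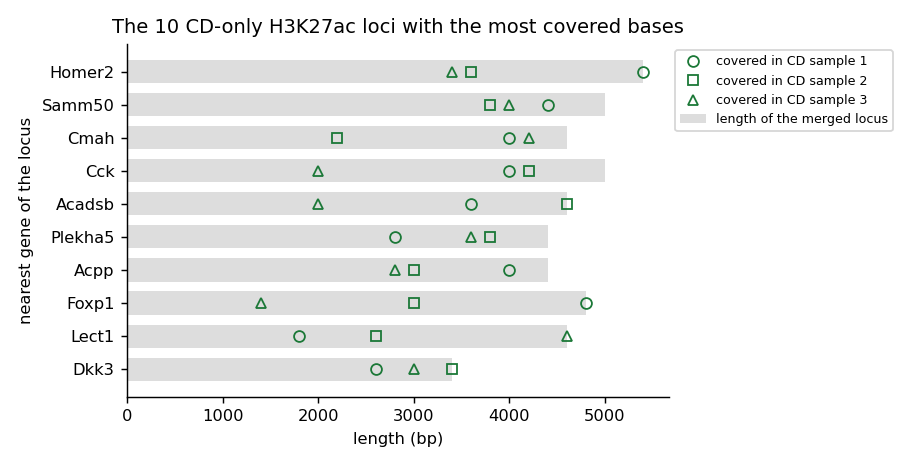
Length of the 10 CD-only H3K27ac loci with the most covered bases (grey bars, bp) and the bases covered by peaks in each CD sample (green circle, square and triangle for samples 1, 2 and 3), one row per locus named by its nearest gene. The 3 samples cover 3800 to 4400 bp of the locus near Samm50, and 1400 to 4800 bp of that at Foxp1, the widest spread.

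The study had designed ChIP-qPCR primers for 4 regions higher on CD, chosen on these samples, and all 4 amplicons lay in CD-only loci. They were the locus near Acpp (amplicon chr9:104264197-104264341), that near Acadsb (chr7:138594144-138594262) and a pair near Sall4, a zinc finger factor of fetal liver and stem cells, at chr2:168590400-168593399 (intron, with a TSS inside) and chr2:168666800-168669599 (intergenic). Sall4 RNA was too low to be tested (mean 0.130 CPM on CD and 0.0112 on LD). Acadsb, a mitochondrial acyl-CoA dehydrogenase of branched-chain amino acid breakdown, read 172, 178, 184, 176 and 172 CPM on CD and 152, 138, 125, 111 and 115 on LD (log2 fold change CD over LD 0.46 ± 0.08 SE, edgeR quasi-likelihood test, Benjamini-Hochberg adjusted p = 0.00136). Fgfr2, the growth factor receptor whose intron holds that locus, read 57.0 to 65.6 CPM on CD and 41.4 to 53.4 on LD (0.35 ± 0.08, adjusted p = 0.00433). The CD mice lay above the LD mice without overlap for both genes.

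The loci lay on all autosomes and on chromosome X. Chromosome 14 held 27, or 24.2 per 1000 loci found in all 6 samples, and chromosome 10 held 12, or 7.65 per 1000. Of neighbouring CD-only loci, 22 pairs lay under 50 kb apart. Cmah, which encodes the hydroxylase that makes the sialic acid Neu5Gc, was nearest to 3 loci and 19 genes to 2. Cmah RNA was 237, 277, 334, 272 and 245 CPM on CD and 206, 131, 163, 130 and 177 on LD, so that every CD mouse exceeded every LD mouse (log2 fold change 0.76 ± 0.13 SE, adjusted p = 0.00133 by edgeR).

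Short strings of factor sites were counted, on both strands, in the central 600 bp of each locus. The HNF6 string ATTGATTT was in 30 CD-only loci (7.89%), in 2.67% of LD-only loci and in 3.0% of loci of all 6 samples. The AP-1 string TGANTCA, the site of Fos and Jun dimers, was in 15% of CD-only, 24.9% of LD-only and 16.8% of all-sample loci. Shares of the other strings differed less between the classes. The C/EBP string TTGCNNAA was in 26.1%, 27.9% and 23.8%, the STAT5 string TTCNNNGAA in 19.5%, 21.3% and 17.3%, the HNF1 string GTTAATNAT in 2.89%, 2.29% and 2.24%, and the HNF4 string CAAAGTCCA in 1.84%, 1.65% and 1.68%. The central 600 bp of CD-only loci had a lower GC content (44.7%) than those of LD-only (46.0%) and all-sample loci (48.7%), and the part of base composition in these shares was not tested. A match is a run of letters, not a bound site.

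RNA of the genes nearest to CD-only loci was more often higher on CD than RNA of other genes. The 380 loci had 359 nearest genes, of which 280 passed the filter on low counts. Of these, 94 (33.6%) were called higher on CD and 15 (5.36%) lower, at an adjusted p under 0.05 and a fold change above 1.2 (edgeR quasi-likelihood test, Benjamini-Hochberg adjustment over 13494 genes). Over all tested genes, 11.1% were called higher and 13.8% lower. By limma on log2(TPM + 1), 63 nearest genes were higher and 22 lower (74.1% of calls higher, against 86.2% by edgeR), and over all genes 24.9% of calls were higher, against 44.6%. The median log2 fold change of the 280 genes was 0.18, against 0.00 over all genes. For 70 of the 280 genes all 5 CD mice exceeded all 5 LD mice, which held for 8.35% of all tested genes. In whole liver, fewer cells of a type and less RNA per cell cannot be told apart.

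Around LD-only loci the balance was the other way. Of their 970 tested nearest genes, 78 (8.04%) were higher and 235 (24.2%) lower on CD, with a median log2 fold change of -0.13. Genes nearest to loci of all 6 samples were called at 11.6% higher and 13.6% lower of 11134, close to the shares over all genes. A gene can be nearest to loci of more than 1 class.

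**Figure D2:**
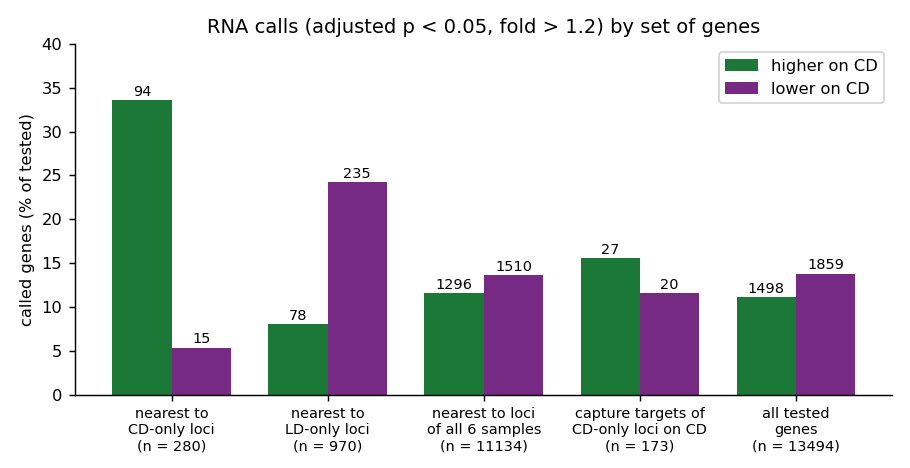
Share of tested genes called higher (green) or lower (purple) on CD, in percent, for genes nearest to CD-only, LD-only and all-sample H3K27ac loci, for promoter capture targets of CD-only loci and for all tested genes (numbers above bars are called genes, n is tested genes). The bar for genes higher on CD reaches 33.6% for CD-only loci and 8.04% for LD-only loci, against 11.1% of all genes.

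The share of nearest genes called higher lay between 28.6% and 35.4% at every distance. It was 22 of 64 (34.4%) for genes within 10 kb of a locus, 45 of 133 (33.8%) at 10 to 50 kb, 10 of 35 (28.6%) at 50 to 100 kb and 17 of 48 (35.4%) farther away. Genes that hold the centre of a CD-only locus in their body were called higher in 74 of 205 cases (36.1%) and lower in 9 (4.39%). The genes nearest to the 150 loci outside gene bodies were called higher in 33 (31.1%) and lower in 5 (4.72%) of 106. Gene bodies here were the deposited gene coordinates, whereas the 142 loci outside genes given above were placed by a different annotation.

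Of the 12 nearest genes with the largest changes, 11 are reported here. These were higher on CD, and 3 encode proteins of lipid, steroid or bile acid handling. Pnpla3, whose human counterpart is known for its association with fatty liver, read 30.2, 20.1, 14.1, 14.6 and 16.0 CPM on CD and 2.30, 3.93, 4.66, 3.70 and 4.67 on LD (log2 fold change 2.30 ± 0.25 SE, adjusted p = 0.000107 by edgeR). The lowest CD mouse was above the highest LD mouse by more than the whole LD range. A locus at chr15:83991800-83993799, 4.45 kb before its TSS, holds the HNF6 string printed above, and the locus nearest to Samm50 lies in its intron. Cyp2c70, which makes muricholic acids in mouse liver, read 495, 439, 336, 542 and 445 CPM on CD and 186, 199, 132, 144 and 147 on LD (1.48 ± 0.14, adjusted p = 2.48e-05), with an intronic locus at chr19:40242000-40243599. Ugt2b38, a UDP-glucuronosyltransferase, read 7.07, 7.88, 5.14, 15.4 and 4.75 CPM on CD and 1.51, 0.956, 1.36, 0.667 and 0.587 on LD (2.98 ± 0.38, adjusted p = 0.000303), with a locus 0.972 kb from its TSS at chr5:87854200-87855799. Ugt2b genes are close paralogs, so reads may be split between them.

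An acid phosphatase, a transporter and an acetyltransferase were also among them. Acpp (prostatic acid phosphatase) read 45.8, 42.5, 20.5, 23.1 and 26.4 CPM on CD and 5.98, 5.66, 4.50, 6.88 and 4.50 on LD (log2 fold change 2.52 ± 0.25 SE, adjusted p = 8.68e-05 by edgeR), and CD mice 1 and 2 were the highest. Slc22a28, an organic anion transporter, read 22.8, 21.9, 19.0, 16.4 and 16.3 CPM on CD and 11.9, 7.12, 5.46, 1.73 and 2.15 on LD (1.75 ± 0.46, adjusted p = 0.0216). Its locus, at chr19:8206600-8207999, lies 0.128 kb before its TSS, and the gene has near copies in the same cluster. Without LD mouse 3 its log2 fold change was 1.74 and it was no longer called. Nat8f7, an N-acetyltransferase gene with close paralogs, held 218 counts over the CD mice (0.889 to 1.62 CPM) and 4 over the LD mice (0 to 0.0812 CPM), a ratio of 53.5 after scaling to the library totals, with a 95% counting interval of 20.6 to 198.0 (adjusted p = 1.43e-05). Its locus, at chr6:85651600-85652799, lies in an intron of the neighbouring gene Alms1.

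Grm8, Lect1 and Fras1 encode a receptor and extracellular proteins. Grm8, a metabotropic glutamate receptor, was low on both diets, at 1.98, 2.48, 1.76, 4.79 and 2.59 CPM on CD and 0.487, 0.277, 0.186, 0.243 and 0.168 on LD (log2 fold change 3.29 ± 0.35 SE, adjusted p = 3.84e-05 by edgeR). The intronic locus of Grm8, 81.8 kb from its TSS, holds the Hnf4α peak printed above. Lect1 (chondromodulin, an inhibitor of vessel growth) read 13.6, 13.8, 10.5, 12 and 5.62 CPM on CD and 4.06, 2.69, 2.89, 1.94 and 1.31 on LD (2.10 ± 0.30, adjusted p = 0.000642). Fras1, an extracellular matrix protein of basement membranes, read 7.52, 10.5, 11.0, 15.2 and 13.3 CPM on CD and 5.44, 4.35, 2.70, 3.37 and 3.10 on LD (1.59 ± 0.21, adjusted p = 0.000256). The groups did not overlap for any of these 3 genes, as the rule for naming them required.

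The last pair were Colgalt2, a collagen galactosyltransferase with an intronic locus, at 1.06 to 1.91 CPM on CD and 0.364 to 0.812 on LD (log2 fold change 1.45 ± 0.26 SE, adjusted p = 0.00131), and the noncoding gene Gm16551, at 4.13 to 8.32 CPM on CD and 0.667 to 1.99 on LD (2.32 ± 0.30, adjusted p = 0.000235). The locus of Gm16551 lies 141 kb from its TSS.

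**Figure D3:**
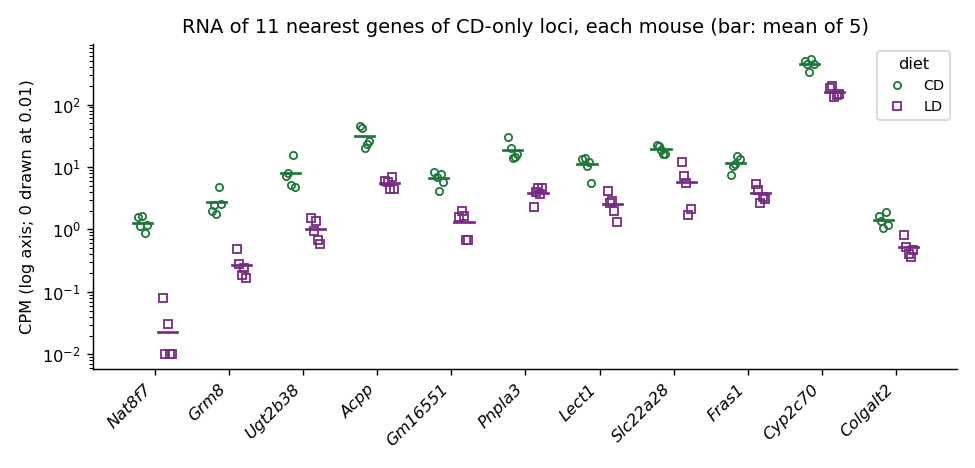
RNA level (CPM, log axis, 0 drawn at 0.01) of 11 nearest genes of CD-only loci with large changes, one point per mouse (green circles CD, purple squares LD), with a bar at the mean of 5. In each gene the CD points lie above the LD points, where the rule for naming these genes required that the diets not overlap. Levels range from under 1 CPM (Nat8f7 and Grm8 on LD) to 336 to 542 CPM (Cyp2c70 on CD).

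The nearest genes of the 10 loci with the most covered bases differed less than these, except Acpp and Lect1. Homer2 read 35.0, 34.4, 42.2, 35.0 and 27.4 CPM on CD and 27.6, 25.6, 22.3, 23.6 and 16.8 on LD (log2 fold change 0.58 ± 0.13 SE, adjusted p = 0.0058 by edgeR), so that the lowest CD mouse just overlapped the highest LD mouse. Foxp1 was 17.4 to 23.4 CPM on CD and 14.3 to 17.6 on LD (0.33 ± 0.09, adjusted p = 0.0192), a call that was lost without LD mouse 3 (0.29) or CD mouse 2 (0.26) and by limma on TPM (0.20). Samm50, Plekha5 and Dkk3 were not called (0.24, 0.16 and -0.03), nor were Trak1 and Usp47 (-0.12 and 0.13), whose introns hold the loci near Cck and Dkk3. Samm50 was called without LD mouse 4 (0.28) or CD mouse 3 (0.29). Cck had no count in any mouse.

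The 3 genes of the lipogenesis list that were nearest to CD-only loci were higher on CD. Besides Pnpla3 they were Acacb, the acetyl-CoA carboxylase of the mitochondrial surface, and Elovl6, the elongase of saturated fatty acids. Acacb read 306, 295, 195, 258 and 307 CPM on CD and 132, 117, 166, 133 and 144 on LD (log2 fold change 0.98 ± 0.13 SE, adjusted p = 0.000173 by edgeR), and holds 2 loci in introns, at chr5:114619400-114621399 and chr5:114639000-114641399. Elovl6 read 544, 496, 477, 398 and 395 CPM on CD and 240, 228, 305, 214 and 290 on LD (0.85 ± 0.12, adjusted p = 0.000247), with its locus at chr3:129338600-129340799, 103 kb from the TSS on the last part of the gene. Of the 20 genes of the lipogenesis list, 8 were higher and 2 lower on CD, with a median log2 fold change of 0.26. Over all tested genes, 11.1% were higher and 13.8% lower.

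Of 6 cytochrome P450 genes nearest to CD-only loci, 5 were higher on CD and 1 lower, while of 71 tested Cyp genes 18 were higher and 15 lower (median 0.09). Cyp7b1, the oxysterol hydroxylase of the acidic bile acid pathway, read 220, 212, 244, 244 and 216 CPM on CD and 128, 102, 84.7, 83.8 and 59.8 on LD (log2 fold change 1.31 ± 0.16 SE, adjusted p = 0.000202 by edgeR), with an intronic locus at chr3:18104600-18107599. Cyp4f14, an omega-hydroxylase of fatty acids and eicosanoids, rose by 1.38 on the log2 scale (281.7 ± 26.1 CPM against 108.1 ± 35.5, SD, n = 5), Cyp1a2, a caffeine and xenobiotic oxidase, by 0.90, and Cyp2d13 by 0.72. Cyp3a25 fell by 0.36 on the log2 scale (393.8 ± 42.2 against 504.8 ± 47.0 CPM), without overlap between the groups. Cyp2d13 has close paralogs. Of the 11 genes of the bile acid list 4 were higher and 1 lower (median 0.48), against 11.1% and 13.8% of all tested genes. The other member of that list near a CD-only locus, the uptake transporter Slco1b2, was 2135 to 2490 CPM on CD and 1489 to 2218 on LD (0.26, adjusted p = 0.0802 by edgeR). Sult2a8, a bile acid sulfotransferase, read 1257, 1173, 1417, 1195 and 1390 CPM on CD and 1157, 1008, 637, 441 and 367 on LD (0.83 ± 0.30, adjusted p = 0.0638), with no overlap but a wide LD range. It was called by DESeq2, by limma and by edgeR without LD mouse 1 (1.07), and without that mouse Slco1b2 was called too (0.31).

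Solute carriers gave 10 nearest genes, 8 of them tested. Of these, 5 were called, with higher RNA on CD, while of 255 tested Slc genes 31 were higher and 38 lower (median -0.02). Besides Slc22a28 the 5 were Slc22a30 (log2 fold change 0.64), the fructose transporter Slc2a5 (0.59), the betaine transporter Slc6a12 (0.44) and the proton exchanger Slc9a8 (0.29). Slc2a5 was 8.80 to 15.8 CPM on CD and 5.89 to 10.2 on LD, and the groups overlapped. Slc2a5 was no longer called without LD mouse 5 (0.54) or CD mouse 4 (0.54), nor Slc9a8 without any one of 6 mice (0.23 to 0.30) or by limma on TPM (0.19).

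In amino acid metabolism, Hal, the histidine ammonia-lyase, read 331, 376, 393, 304 and 286 CPM on CD and 205, 224, 172, 257 and 171 on LD (log2 fold change 0.71 ± 0.12 SE, adjusted p = 0.00113 by edgeR), with an intronic locus at chr10:92961200-92965199. It was the only gene of the list of amino acid and urea enzymes that was nearest to a CD-only locus. Of the 14 genes of that list 8 were higher and 1 lower on CD (median 0.39), against 11.1% and 13.8% of all tested genes. Outside the fixed lists, and named after their values were seen, Got1 (cytosolic aspartate aminotransferase, log2 fold change 0.71), Etnppl (ethanolamine-phosphate phospho-lyase, 1.08), Cbs (cystathionine beta-synthase, 0.34), Klb (the FGF21 and FGF15 co-receptor beta-klotho, 0.52), Ppp1r3c (a glycogen-targeting phosphatase subunit, 0.95) and Coq8a (a kinase-like protein of coenzyme Q synthesis, 0.81) were also higher on CD.

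Of the liver factors, Onecut1, Bcl6 and Foxa1 were nearest to CD-only loci and none was called by edgeR with all 10 mice. Onecut1 (HNF6) read 3.79, 3.73, 6.17, 41.5 and 22.7 CPM on CD and 5.22, 4.03, 6.33, 4.21 and 1.79 on LD (log2 fold change 1.85 ± 0.77 SE, adjusted p = 0.111 by edgeR). Bcl6, a transcriptional repressor, read 55.2, 53.6, 47.7, 10.2 and 5.73 CPM on CD and 13.3, 12.4, 7.04, 7.82 and 5.34 on LD (1.90 ± 0.66, adjusted p = 0.0628). CD mice 4 and 5 were the highest for Onecut1 and the lowest CD mice for Bcl6, and the other 3 CD mice lay within the LD range for Onecut1. DESeq2 called Onecut1 and Bcl6, whose unadjusted p by edgeR was 0.0414 and 0.0189, and edgeR called Bcl6 without CD mouse 4 (2.14) or CD mouse 5 (2.18). Foxa1, a pioneer factor, read 4.40, 5.19, 6.62, 8.96 and 8.15 CPM on CD and 5.14, 3.83, 4.96, 6.19 and 5.20 on LD (0.40 ± 0.19, adjusted p = 0.138), and was called without CD mouse 1 (0.52). Of the 20 tested nearest genes of the 30 loci with the HNF6 string, 6 were higher (30%) and 2 lower, against 90 of 264 (34.1%) for loci without it. Those higher included Pnpla3, Elovl6, Homer2, Foxk2 and Dlg3.

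The 15 nearest genes lower on CD held 2 of the loci with the HNF6 string. Mfsd2a, the lysophosphatidylcholine transporter for omega-3 fatty acids and a gene known to rise on fasting, read 43.4, 47.2, 65.4, 85.9 and 71.6 CPM on CD and 150, 156, 166, 144 and 146 on LD (log2 fold change -1.28 ± 0.16 SE, adjusted p = 0.000256 by edgeR). Col12a1, a fibril-associated collagen, had the lowest fold change (-1.35, 1.97 to 4.36 CPM on CD and 6.36 to 10.8 on LD), and Mgll (monoacylglycerol lipase, -0.48), Nampt (the rate-limiting enzyme of NAD salvage, -0.49) and Gpx1 (glutathione peroxidase, -0.39) also fell. Others were Evi2a, Mnda, Neurl1b, Fhit, Acsl3, Esd, Cyp3a25, Lamp1 and Arap2.

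PCHi-C placed 119 of the 380 CD-only loci (31.3%) in an interaction with a promoter on CD and 123 (32.4%) on LD, and 103 on both diets. The shares were 26.4% and 28.7% for LD-only loci and 47.3% and 47.5% for loci of all 6 samples. There were 339 pairs of a locus and an interaction on CD and 330 on LD. An interaction whose fragment overlapped neighbouring loci was counted for each locus. Of these pairs 245 were found on both diets, which is 72.3% of those on CD and 74.2% of those on LD. Shared pairs made up 57.8% of all such pairs of CD-only loci, 57.8% for LD-only loci and 57.4% for loci of all 6 samples. The 94 pairs on CD alone had a median CHiCAGO score of 5.6, close to the minimum of 5, and the shared ones 7.46 on CD and 7.65 on LD. Because the authors pooled the replicates, interactions have no replicate spread.

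The RNA of the promoter capture targets differed less than that of the nearest genes. Interactions on CD reached 237 genes, of which 173 were tested, 27 were higher (15.6%, against 11.1% of all genes) and 20 lower (11.6%, against 13.8%), with a median log2 fold change of 0.04. The balance turned by limma on log2(TPM + 1), with 10 higher and 21 lower (32.3% of calls higher, against 57.4% by edgeR), and at a CHiCAGO score of at least 10 it was 7 and 7. Only 14 targets were also a nearest gene. Among those, 5 of 13 tested were higher, and among the 160 that were no nearest gene 22 (13.8%) were higher and 20 (12.5%) lower. Genes contacted on CD but not on LD were called 5 higher and 5 lower of 39, and genes contacted on both diets 22 and 15 of 134. The genes nearest to the 119 interacting loci were called higher in 16 of 85 cases (18.8%), and those nearest to the 261 other loci in 79 of 197 (40.1%). The difference between these shares was not tested.

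The target with the smallest adjusted p was Mlxipl, which encodes ChREBP, the carbohydrate-responsive factor of glycolytic and lipogenic genes. It read 73.8, 79.6, 87.3, 94.3 and 81.9 CPM on CD and 43.8, 32.1, 42.0, 40.4 and 41.5 on LD (log2 fold change 1.06 ± 0.09 SE, adjusted p = 8.57e-06 by edgeR). The groups did not overlap, which the rule for the targets with the largest changes required. Its promoter contacted a fragment with the CD-only locus chr5:135614600-135616799, which begins just past the 3′ end of Mlxipl, 32.1 kb from the bait, with a score of 6.38 on CD and 9.57 on LD. By TSS distance that locus was assigned to Tbl2, which was not called (-0.23). No peak of Hnf4α or C/EBPα was called in it in any sample.

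The other 7 of the 8 targets with the largest changes included Lect1 and Fras1, both also nearest genes. The promoter of Lect1 contacted the locus chr14:79999600-80000999 (scores 5.44 on CD and 6.04 on LD, 61.5 kb) and that of Fras1 its own intronic locus (6.18 and 6.68, 140 kb). The acute-phase genes of the Serpina3 cluster went both ways. Serpina3c read 1.08, 1.02, 0.615, 2.92 and 0.495 CPM on CD and 0.352, 0.428, 0.155, 0.121 and 0.363 on LD (log2 fold change 2.06 ± 0.51 SE, adjusted p = 0.0102 by edgeR), and Serpina3f, Serpina3g and Serpina3n were lower (-0.74, -0.87 and -0.38). Serpina3f and Serpina3g start at the same base in the gene coordinates, so their reads may be shared, and their calls were lost without any one of 4 mice (-0.54 to -0.79).

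Targets lower on CD included Cxcl1, a neutrophil chemokine, at 3.70, 3.08, 2.96, 2.95 and 3.0 CPM on CD and 6.74, 13.3, 6.24, 8.22 and 7.66 on LD (log2 fold change -1.43 ± 0.19 SE, adjusted p = 0.000186 by edgeR). Its contact, over 304.5 kb, was called on CD only, with a score of 5.05. Dtl, a substrate receptor of a ubiquitin ligase active in S phase, read 0.446, 0.470, 0.614, 0.540 and 0.437 CPM on CD and 1.92, 3.25, 2.73, 1.49 and 2.52 on LD (-2.24 ± 0.24, adjusted p = 3.96e-05), and Mybl1, a Myb family factor, 0.168 to 1.05 and 1.36 to 5.0 CPM (-2.10 ± 0.40, adjusted p = 0.00263). The contacts of Dtl and Mybl1 were called on both diets, with top scores of 12.2 and 14.2 on CD and 16.5 and 12.4 on LD. Zfp941, a zinc finger gene, was higher on CD (1.0 ± 0.25, adjusted p = 0.0102), over a contact of 668.7 kb. Elovl5, a target from the lipogenesis list, was 963 to 1583 CPM on CD and 1309 to 1971 on LD (-0.39, adjusted p = 0.0685 by edgeR). It was called lower on CD by DESeq2, by limma and by edgeR without LD mouse 1, LD mouse 2 or CD mouse 5 (-0.39 to -0.48 over these 5 fits).

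**Figure D4:**
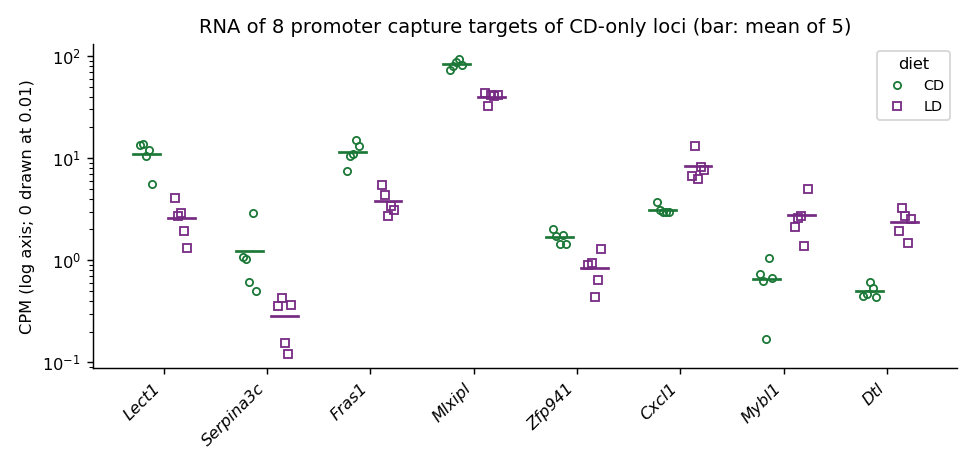
RNA level (CPM, log axis) of the 8 promoter capture targets of CD-only loci with the largest changes, one point per mouse (green circles CD, purple squares LD), with a bar at the mean of 5. The 5 genes on the left are higher on CD and the 3 on the right (Cxcl1, Mybl1 and Dtl) lower. The groups do not overlap, as the rule for naming these genes required.

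Hnf4α peaks were found in CD-only loci on both diets, and the shares overlapped between CD and LD. A peak centre lay in 121 (31.8%) and 181 (47.6%) of the 380 loci in the CD samples and in 145 (38.2%) and 122 (32.1%) in the LD samples (two-sided exact permutation test on the shares, p = 1.0, where 2 samples against 2 cannot go below 0.333). The lists of the 4 samples held 35143, 47992, 46363 and 44247 peaks, with the fewest in CD sample 1. Both CD samples had a peak in 109 loci (28.7%), all 4 samples in 71 (18.7%) and none in 159 (41.8%). In the 71 loci the median peak height, a tag count normalized by the authors, was 14.8 and 27.8 on CD and 21.5 and 16.2 on LD. The median log2 ratio of heights, CD over LD, was 0.25 there, -0.05 in loci of all 6 samples and -0.71 in LD-only loci. Both CD heights exceeded both LD heights in 12 of 71 loci (16.9%, against 2.38% in loci of all 6 samples), and the reverse held in 8 (11.3%, against 13.7%).

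C/EBPα peak centres lay in 86 (22.6%) and 75 (19.7%) of the CD-only loci on CD and in 84 (22.1%) and 89 (23.4%) on LD (two-sided exact permutation test, p = 0.667). None of the 4 samples had one in 230 loci (60.5%). In the 37 loci where every sample had one, the median heights were 36.5 and 26.5 on CD and 17 and 17 on LD, and both CD heights exceeded both LD heights in 28 (75.7%), against 47.8% of such loci among those of all 6 samples and 13.5% among LD-only loci. The median log2 ratio of heights was 0.90, against 0.45 and -0.24. Heights on CD were thus higher in the all-sample loci too, so the 0.90 stands beside a shift of 0.45.

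**Figure D5:**
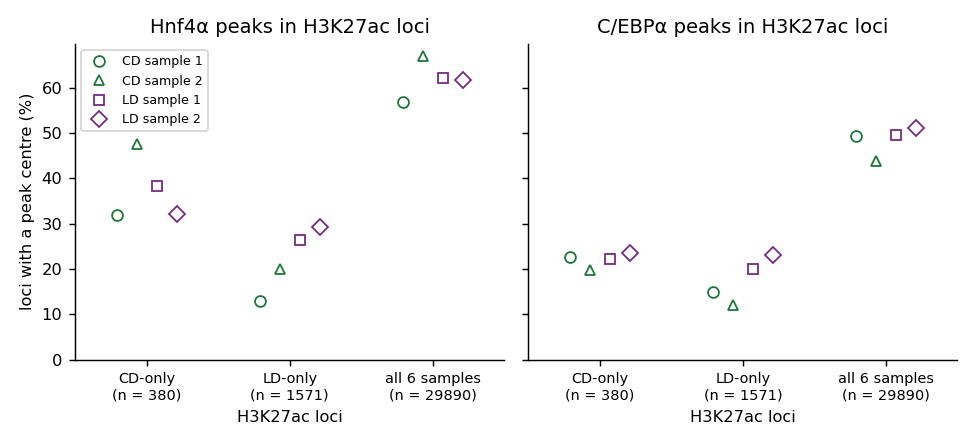
Share of H3K27ac loci (percent) with a peak centre of Hnf4α (left) or C/EBPα (right) in each ChIP-seq sample (green circle and triangle, CD samples 1 and 2; purple square and diamond, LD samples 1 and 2), for CD-only, LD-only and all-sample loci. In CD-only loci the CD and LD points overlap (31.8% to 47.6% and 32.1% to 38.2% for Hnf4α), whereas in LD-only loci both LD points lie above both CD points.

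At named loci, factor peaks differed from sample to sample. The locus near Acpp had Hnf4α heights of 20 and 24.8 on CD and 7.25 and none on LD, with the centre in the sequence printed above. The locus near Acadsb had C/EBPα heights of 79 and 57 on CD and 12 and 12 on LD at its tallest peaks, and Hnf4α heights of 27 and 22.5 on CD and 29.8 and none on LD. The locus with the most covered bases, in Homer2, had Hnf4α heights of 15 and 34 on CD and 24.5 and 18.5 on LD, with the CD and LD values overlapping.

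Peaks called in both CD samples and in no LD sample lay in 14 CD-only loci for Hnf4α (3.68%, against 0.191% of LD-only and 1.81% of all-sample loci) and in 7 for C/EBPα (1.84%, against 0.446% and 1.41%). Peaks called on LD alone lay in 6 for Hnf4α (1.58%, against 5.16% and 1.55%) and in 11 for C/EBPα (2.89%, against 5.09% and 3.74%), so that for C/EBPα they outnumbered those on CD alone. Only chr10:94461600-94463799 had both factors on CD alone, with Hnf4α heights of 7.5 and 13.2 and C/EBPα heights of 15 and 8. Its nearest gene, Plxnc1, a semaphorin receptor, lies 54.4 kb away and was 55.8 to 75.4 CPM on CD and 29.8 to 71.2 on LD (log2 fold change 0.40 ± 0.19 SE, adjusted p = 0.144 by edgeR), and its fragment contacted the promoters of Cradd (scores 7.47 on CD and 5.27 on LD) and of Socs2 (9.87 and 7.78), a feedback inhibitor of growth hormone signalling.

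Of the nearest genes of the 14 loci with Hnf4α on CD alone, those called included Il1r1 (the interleukin-1 receptor, log2 fold change 0.53), Grm8 and Glra3 higher and Esd (esterase D, -0.39) lower. Glra3, a glycine receptor subunit, was 0.381 to 0.701 CPM on CD and had no count in any LD mouse. Of the 7 with C/EBPα on CD alone, Coq8a and the secreted peptide gene Prok1 were higher (0.81 and 1.41), and Plxnc1, Ddc, Hip1r, Vps50 and Uvrag were not called.

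The share of nearest genes higher on CD was similar with and without factor peaks. It was 21 of 75 (28.0%) where both CD samples had Hnf4α, 41 of 124 (33.1%) where no sample had it, 10 of 35 (28.6%) where both CD samples had C/EBPα, 59 of 176 (33.5%) where none had it and 31 of 99 (31.3%) for the 127 loci with neither factor, all above the 11.1% of all tested genes. Of 21 genes for enzymes that write or erase H3K27 marks and for their readers, 10 were higher on CD (median 0.28), and none was nearest to, or contacted by, a CD-only locus.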

How the data were processed

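Per the labels and the study's methods, RNA was aligned with STAR 2.5 and counted per gene with featureCounts 1.5.0-p1. The deposited counts are not normalized, and the deposited TPM values come with the authors' own fold changes and adjusted p-values, which were not used. H3K27ac intervals were called by the authors per sample with SICER 1.1 (window, gap and fragment 200 bp, FDR 0.001) on mm9. Deposited Hnf4α and C/EBPα peak heights are a signal, a tag count scaled by HOMER and called against input. PCHi-C scores were computed by the authors with CHiCAGO on pooled samples (score at least 5, within 1 Mb).

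Peaks sharing at least 1 base were merged. Each locus received the gene with the nearest TSS, in the deposited mm9 gene coordinates. Places in genes and sequences came from NCBIM37, the same assembly. Counts were fitted with edgeR 4.0.16 (TMM, filterByExpr, quasi-likelihood) in R 4.3.3, with limma 3.58.1 on log2(TPM + 1) and DESeq2 1.42.0 as alternatives. Genes were called at an adjusted p under 0.05 and a fold change above 1.2. Scripts for loci and for RNA were tested on simulated data. Named genes were the 12 nearest genes and 8 capture targets with the largest changes among called genes. For these the mean had to reach 1 CPM on either diet and the diets could not overlap. Also named were nearest genes of the 10 loci with the most covered bases, genes nearest to at least 3 loci, and members of fixed lists. Members and lists were chosen with earlier results of these data known. Intervals cover counting error only. Some named genes are not reported here. The number of per-sample columns left out was 0.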

Additional observations from a re-analysis of the deposited data

Results flagged for a closer look

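In the groups of 5 mice, 6 values of named genes stood apart from the other 4 of their diet by Dixon's test at the 95% level. About 1 in 20 groups is picked out in this way by chance, and 102 groups were looked at. On CD, mouse 4 had 4.79 CPM of Grm8 (1.76 to 2.59 in the others) and 2.92 of Serpina3c (0.495 to 1.08). Mouse 1 on CD had 3.70 CPM of Cxcl1 (2.95 to 3.08) and mouse 3 on CD 6.68 CPM of Slc16a6 (4.02 to 4.76). On LD, mouse 2 had 13.3 CPM of Cxcl1 (6.24 to 8.22) and mouse 1 had 84.7 CPM of Slc38a2 (59.0 to 61.8).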

How the results depend on the processing

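The number of CD-only loci rested on the rule. It was 1431 with a peak in at least 2 CD samples and no LD sample, 1134 with all 3 CD and at most 1 LD sample, and 489 to 811 when 1 H3K27ac sample was left out. Without a CD sample, 366 to 377 of the 380 loci were overlapped by the loci found. Interacting loci numbered 30 at a CHiCAGO score of at least 10 and 421 with the wider loci (at least 2 CD samples). Loci with Hnf4α in both CD samples numbered 30 with peaks at or above the median height and 121 to 181 when 1 CD sample was left out, and those with C/EBPα 75 to 86.

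Nearest genes called higher numbered 248 with the wider loci and 80 to 101 when 1 RNA library was left out, and those lower 62 and 13 to 18, and 23 when only tested genes could be nearest. With loci found without 1 H3K27ac sample, an alternative chosen after seeing the data, 164, 170 and 148 were higher without CD samples 1, 2 and 3 and 184 without LD sample 1, all between 109 and 184 (29.4% to 33.8% of tested). Those lower then numbered 28, 35 and 36, and 34 and 27 without LD samples 1 and 2, all between 21 and 36. Targets called higher numbered 85 with the wider loci, 7 at a score of at least 10, 10 by limma on log2(TPM + 1) and 21 to 29 when 1 RNA library was left out, and those lower 79, 7 and 16 to 21. By limma on TPM the median of all genes moved to -0.06, and 740 of all genes were higher and 2227 lower (24.9% of calls higher, against 44.6%). Nearest genes were then 63 and 22 (74.1%, against 86.2%) and targets 10 and 21 (32.3%, against 57.4%). The cause was not tested. DESeq2 gave 103 and 18 for nearest genes.

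Same-numbered mice did not deviate together (r from -0.13 to 0.23, and 1 of 5 mice nearest to its own number). With the replicate number as a block, 89 nearest genes were higher and 17 lower, targets 23 and 17, and all genes 1355 and 1818.

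Signs turned for 4 genes that were not called. Cyp2e1 was -0.0159 by limma and -0.0855 to 0.114 when 1 library was left out, Dkk3 -0.154 to 0.0840, Slc25a51 -0.0030 to 0.16 and Ugt2b34 -0.0763 to 0.0195.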

Other observations

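Loci with a peak on both diets also held stretches where peaks were called on CD alone. The H3K27ac signal in such stretches was not compared between the diets, and mirrored stretches of LD were not counted. Stretches of at least 1000 bp that were covered in all 3 CD samples and in no LD sample numbered 367. Of these, 137 lay in CD-only loci, in 134 of the 380, and 230 in loci with a peak on LD as well.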
